A study of Hermetia illucens with 24 samples.

Results

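The 150 genes described here kept a similar level between 6 and 24 h in control larvae of *Hermetia illucens*, the black soldier fly, and stood lower at 72 h. They were taken from 15129 genes with a LOC identifier, leaving out the most abundant gene, LOC119646963. The level of a gene is its log2(CPM + 1), where CPM is its read count scaled to a fixed library sum, taken without LOC119646963. A gene qualified if its control means at 6 and 24 h differed by less than 1 and its 72 h control mean lay at least 1 below the lower of them, and 192 genes did so. The 150 with the largest such fall are the members. The members were thus chosen by their levels in the 12 control libraries, so control values are given as a description with no test, and the AFB1 libraries, which the choice did not use, carry the tests.

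At an age of 5 days, larvae received chicken feed that was either plain or carried aflatoxin B1 (AFB1), and they were collected 6, 24 or 72 h later. Each of the 6 combinations of feed and time has 4 libraries, 24 in all, and each library is total RNA of 2 pooled larvae. The labels give no AFB1 dose, no instar and no strain. All larvae were reared alike, and the controls differ from the AFB1 groups in the feed alone, per the labels. Since RNA came from whole larvae, fewer cells of a type and less RNA per cell cannot be told apart. Nothing in the labels says that pools came from separate rearing containers, so p-values measure the spread between pools.

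Black soldier fly larvae feed through a series of instars separated by moults, and pulses of the steroid hormone ecdysone time the moults and the later change to the pupa in insects. Genes of the gut, fat body and epidermis are switched on and off along this course. AFB1 is a toxin of *Aspergillus* moulds, and in many animals cytochrome P450 enzymes turn it into a reactive epoxide that binds DNA. The sources used here give no product names for LOC identifiers, so the members are described by identifier, class and level, and no role is given to any of them. For the same reason, no list of pathway genes or of tissue markers could be formed, and the labelled tissue, larvae, was not checked against markers.

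Several libraries stood apart. The 72 h controls differed little from each other: between 11.6% and 31.6% of genes differed beyond counting noise between pairs of them, against 43.7% to 82.7% within the other 5 groups. Whether they stem from 4 separate pools cannot be told from the files. Control 6 h replicate 2 correlated best with the 72 h controls (mean r = 0.947, against 0.848 with its own group), and AFB1 6 h replicate 2 with control 24 h replicate 1 (r = 0.986). AFB1 72 h replicate 2 was closest to a control as well, 6 h replicate 1 (r = 0.863), though no other group had a higher mean correlation with it than its own (0.792). Further libraries had a higher mean correlation with another group than with their own. Among controls these were 6 h replicate 3 (0.896 with control 72 h, 0.871 with its own), 24 h replicate 1 (0.878 with AFB1 6 h, 0.865) and 24 h replicate 4 (0.816 with AFB1 24 h, 0.775). On AFB1 feed these were 6 h replicate 3 and 24 h replicate 1. Whether any of these libraries is a repeat or carries a wrong label cannot be told from the files, and they are named here by their labels. LOC119646963 took 36.8% of the counts in control 24 h replicate 4, and 74.2% and 81.1% in AFB1 24 h replicates 3 and 4. That left between 1711314 and 24355059 counts per library for all other genes, and depth was lowest in AFB1 24 h replicates 3 and 4.

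The members together took a small part of the counts outside LOC119646963. In controls this share was 1.62% ± 0.617 (SD, n = 4) at 6 h, 1.87% ± 0.578 at 24 h and 0.411% ± 0.0128 at 72 h. In larvae on AFB1 feed it was 2.26% ± 0.525 at 6 h, 1.58% ± 0.316 at 24 h and 1.46% ± 0.709 at 72 h (SD, n = 4). The lowest AFB1 72 h library, at 0.962%, lay above all 4 control 72 h libraries, which ran from 0.397% to 0.425%. Members were chosen for low levels in those 4 control libraries, so the choice favours this gap, and it was not tested. Single members covered a wide range, with group means in 6 h controls from 2.17 to 1910 CPM and a median of 29.6 CPM.

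**Figure D1:**
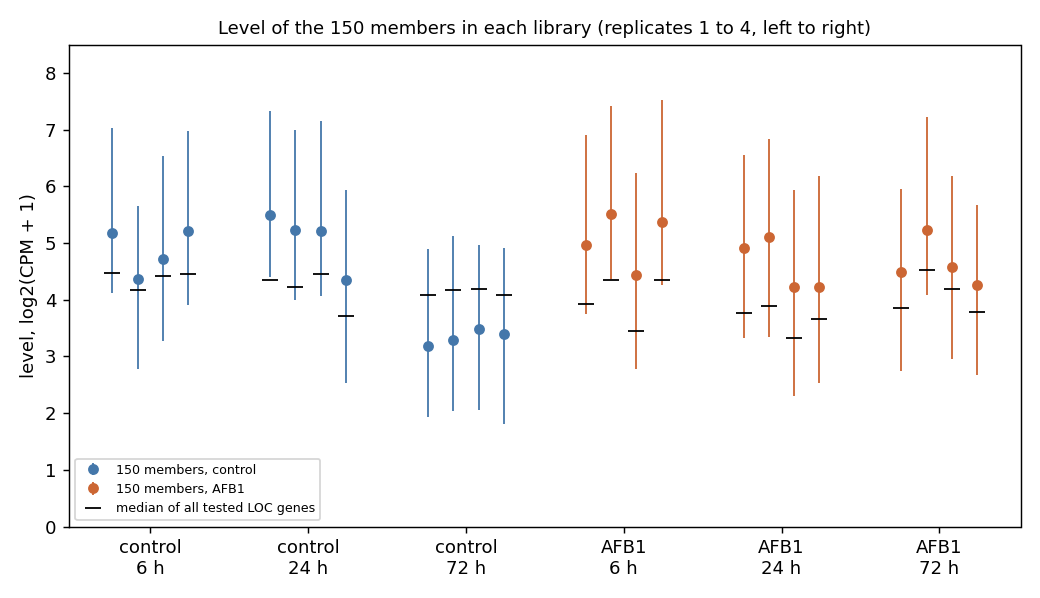
Level of the 150 members in each library, as log2(CPM + 1) on the vertical axis, with the median as a point and the quartiles as bars (blue for control, orange for AFB1), beside the median of all tested genes with a LOC identifier (black dash). Member medians lay below the dash in the 4 control 72 h libraries, at 3.19 to 3.49, and above it in the AFB1 72 h libraries, at 4.26 to 5.24. The choice of members favours low levels in the control 72 h libraries.

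The control fall of the members ran from 1.09 to 3.12 log2 units with a median of 1.31. LOC119652133 had the largest. Its levels were 5.53, 1.20, 27.3 and 45.3 CPM in the 6 h controls, 44.0, 4.64, 48.9 and 5.07 CPM at 24 h, and 0.267, 0.442, 0.398 and 0.288 CPM at 72 h. All 72 h controls lay below the other 8, though the earlier values spread widely and replicate 2 of 6 h came nearest to them. LOC119652622 followed, with 197, 20.1, 18.8 and 73.0 CPM at 6 h, 163, 130, 78.0 and 40.2 CPM at 24 h and 5.33 to 8.16 CPM at 72 h. LOC119651873, which also had the most reads of all members in the earlier controls, had 1010, 1520, 956 and 4140 CPM at 6 h, 2880, 1870, 1460 and 305 CPM at 24 h and 240 to 268 CPM at 72 h. LOC119656289 was the exception among these 4 in that the groups overlapped: control 6 h replicate 2 had 0.600 CPM, below the 1.47 to 2.30 CPM of the 72 h controls.

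The same 2 control libraries were low across the list. Control 6 h replicate 2 was the lowest of its group for 96 members (64.0%, against 51.1% of all tested genes), and control 24 h replicate 4 for 104 (69.3%, against 54.5%). Over members, the median distance above the 72 h control mean was 0.81 in control 6 h replicate 2 and 1.61 in the mean of the other 3 libraries of 6 h. It was 0.81 in control 24 h replicate 4 and 2.01 in the mean of the other 3 of 24 h. Without both libraries the median fall was 1.54, 145 members still had a fall of at least 1, and the rule took 97 of the same 150 genes. In 73 members every 72 h control lay below all 8 earlier controls, where 3.78% of all tested genes did so, and nothing is read from this, since these values made the choice.

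**Figure D2:**
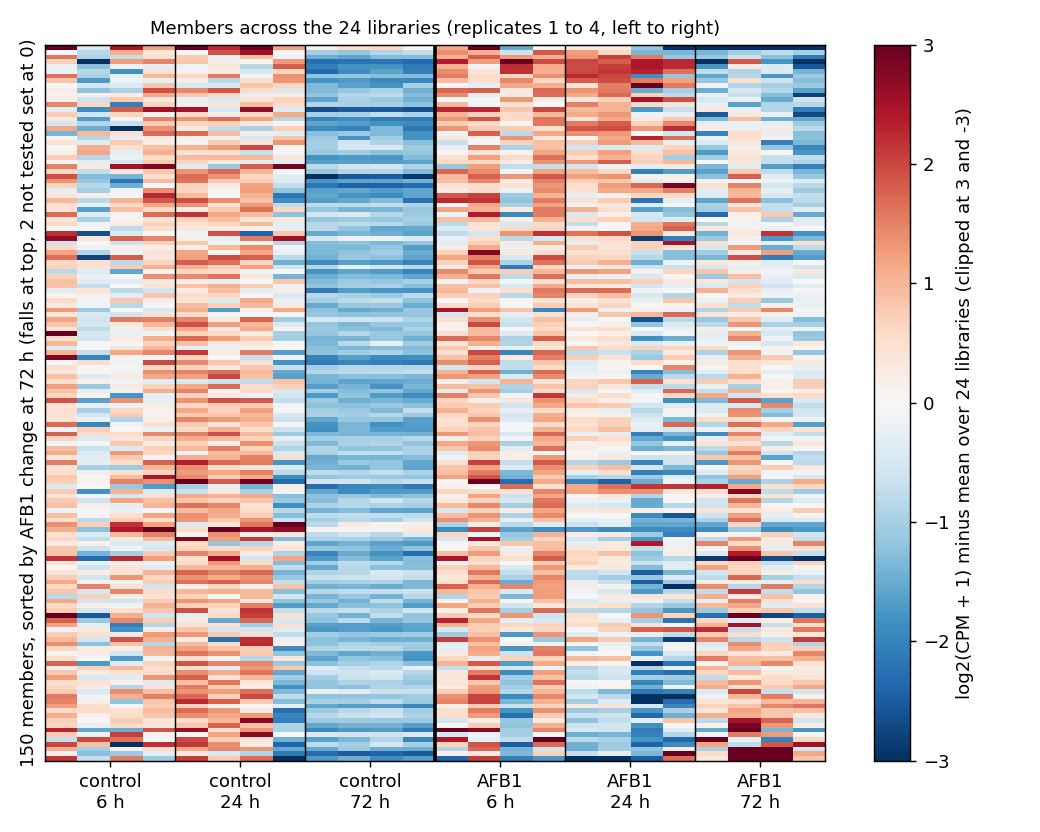
Members (1 per line, sorted by their change in AFB1 libraries at 72 h) across the 24 libraries, coloured by log2(CPM + 1) minus the mean of the gene over all libraries, with the scale clipped at 3 and -3. The control 72 h block is blue on nearly all lines, and the AFB1 72 h block is mostly blue on the uppermost lines, mostly red on the lowest and mixed between them.

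The test asked whether the members were also lower at 72 h in larvae on AFB1 feed. It compared the 4 AFB1 72 h libraries with the mean of the AFB1 6 and 24 h groups, in a fit of the 12 AFB1 libraries alone (edgeR's quasi-likelihood test, Benjamini-Hochberg adjustment over 9480 genes, called at an adjusted p under 0.05). Of the 148 members tested, 22 (14.9%) fell, beside 6.75% of all genes tested, and 5 (3.38%) rose, beside 8.16%. The other 121 did not pass. The median log2 fold change was -0.35 over the members and 0.07 over all genes, and 100 members had a negative value (67.6%, against 47.2% of all genes).

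The number that fell was 9 without AFB1 72 h replicate 3 and 7 without replicate 4, while the share over all genes went to 1.89% and 1.96%. Without AFB1 72 h replicate 2 it was 26 (17.6%), beside 4.59% of all genes. It was 15 without the 3 AFB1 libraries that correlated better with another group (6 h replicates 2 and 3, 24 h replicate 1), beside 3.93% of all genes.

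The member with the largest fall was LOC119649482. It had 74.2, 323, 10.6 and 34.0 CPM in the AFB1 6 h libraries, 40.2, 41.4, 13.8 and 0 CPM at 24 h and 1.06, 0.573, 2.20 and 2.46 CPM at 72 h. The 72 h libraries lay below all earlier ones except 24 h replicate 4, where the gene had no count. Its log2 fold change was -5.07 (SE 1.16, adjusted p = 0.0151 in edgeR). In 72 h controls it kept 33.6 to 49.8 CPM, so the AFB1 libraries of that time lay far below the controls, the lowest such difference of all members at -4.11 log2 units.

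LOC119656761 had 11.7, 20.1, 13.7 and 11.7 CPM on AFB1 feed at 6 h, 14.2, 23.9, 16.7 and 1.75 CPM at 24 h and 1.73, 2.86, 1.55 and 0.388 CPM at 72 h. Only 24 h replicate 4 among the earlier libraries was as low as those of 72 h. The log2 fold change was -3.37 (SE 0.59, adjusted p = 0.00399 in edgeR), and the call held in each of the 22 alternatives run. The 72 h levels were close to those of the 72 h controls, 1.03 to 1.46 CPM.

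LOC119646458 was abundant and higher on AFB1 feed than in most controls before it fell. It had 331, 147, 748 and 349 CPM at 6 h, 628, 683, 881 and 762 CPM at 24 h and 47.6, 194, 123 and 26.6 CPM at 72 h. Its 72 h libraries lay below all those of 24 h, and replicate 2 of 72 h overlapped with replicate 2 of 6 h. The log2 fold change was -2.91 (SE 0.63, adjusted p = 0.0104 in edgeR), called in all 22 alternatives.

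LOC119654865 had few reads throughout, with 5.75, 4.38, 0.662 and 8.26 CPM at 6 h, 5.14, 2.93, 0 and 0 CPM at 24 h and 0 to 0.517 CPM at 72 h on AFB1 feed. The zeros at 24 h fell in replicates 3 and 4, the libraries of lowest depth. Its log2 fold change was -3.85 (SE 0.95, adjusted p = 0.02 in edgeR).

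LOC119656478, among the members with most reads in controls, had 1900, 949, 1000 and 1680 CPM at 6 h, 3100, 2610, 180 and 285 CPM at 24 h and 221, 364, 195 and 306 CPM at 72 h. The 24 h libraries parted, with replicates 3 and 4 already as low as those of 72 h. The log2 fold change was -2.57 (SE 0.69, adjusted p = 0.027 in edgeR), and it lost its call in 6 of the 22 alternatives. LOC119652133, the first by control fall, had 13.2 to 37.6 CPM at 6 h, 1.43 to 15.4 CPM at 24 h and 9.25, 5.56, 3.36 and 0.905 CPM at 72 h. It fell by 1.91 on the log2 scale (SE 0.60, edgeR adjusted p = 0.0451), a call that was lost in 12 of the alternatives.

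In 6 of the members that fell, every AFB1 72 h library lay below all 8 earlier AFB1 libraries; 4.0% of the 150 members did so, beside 2.13% of all tested genes. They were picked out after their values were seen. LOC119646589 had 46.3 to 171 CPM in the earlier libraries with a median of 122, and 12.2 to 24.8 CPM at 72 h. LOC119655164 had 26.3 to 92.1 CPM with a median of 56.9, and 11.4 to 22.0 CPM at 72 h. In LOC119648764 the earlier range was 64.8 to 388 CPM (median 99.0) and the 72 h range 23.1 to 59.1 CPM. These 3 genes thus had group ranges that did not meet.

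LOC119651594, the only member annotated as a long non-coding RNA, had 12.5 to 42.6 CPM in the earlier libraries (median 22.2) and 4.40 to 10.3 CPM at 72 h. LOC119651193 had 9.04 to 26.7 CPM and then 1.94 to 9.00 CPM, and LOC119658367 had 4.55 to 15.4 CPM and then 0.900 to 3.86 CPM. In 5 of these 6 genes the AFB1 72 h means stayed more than 0.5 log2 units above those of the 72 h controls, and LOC119658367 differed from them by 0.13. Among all 22 members that fell, the AFB1 72 h mean lay above the control mean in 16, where 58.1% of all tested genes did so. The differences ran from -4.11 to 1.85 log2 units with a median of 0.61. Choosing genes that are low in 72 h controls favours positive differences, so they were not tested.

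**Figure D3:**
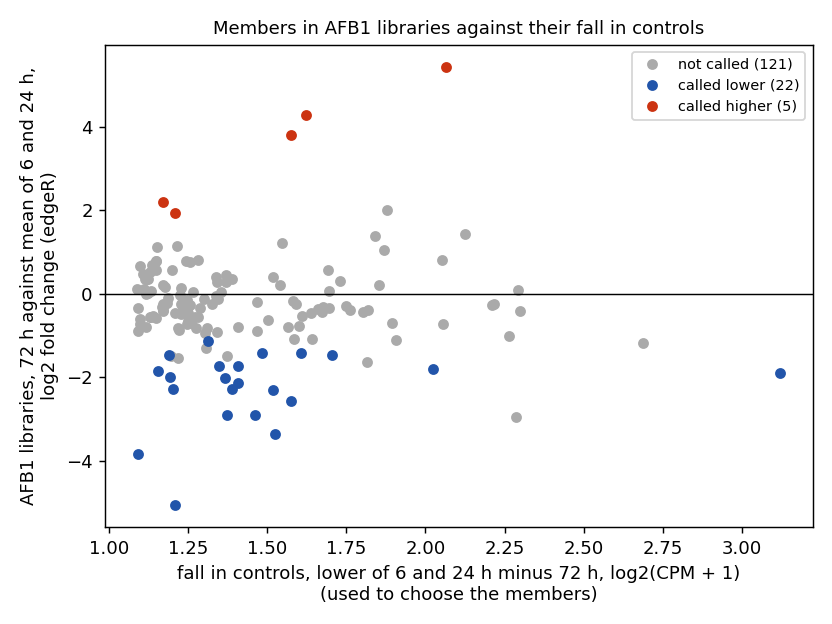
Change of each tested member in AFB1 libraries (72 h against the mean of 6 and 24 h, edgeR log2 fold change, vertical axis) against its fall in controls (horizontal axis, log2(CPM + 1), the value that chose it). The 22 called lower (blue) run from -1.13 to -5.07 and the 5 called higher (red) from 1.92 to 5.44, and the called members lie at small as well as large control falls.

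The 5 members that rose did so against their course in controls. LOC119653153 had 1.03, 44.3, 1.55 and 2.20 CPM at 6 h, 0.293, 0.325, 0.952 and 33.3 CPM at 24 h and 12.0, 1140, 966 and 18.1 CPM at 72 h on AFB1 feed. The 72 h libraries parted into replicates 2 and 3, near 1000 CPM, and replicates 1 and 4, within the earlier range. Its log2 fold change was 5.44 (SE 1.44, adjusted p = 0.0268 in edgeR), and it lost its call in 10 of the 22 alternatives, among them those without replicate 2 (4.95) or 3 (4.83) of 72 h.

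LOC119655117 went the same way, with 36.5, 40.7, 12.8 and 56.0 CPM at 6 h, 20.4, 26.3, 12.4 and 385 CPM at 24 h and 49.3, 4030, 2200 and 74.6 CPM at 72 h. Replicates 2 and 3 of 72 h again stood far above replicates 1 and 4. The log2 fold change was 4.28 (SE 1.05, adjusted p = 0.0209 in edgeR), and it lost its call in 5 alternatives, among them those without either of those 2 libraries (3.47 and 3.96). LOC119646246 had 0.587 to 13.6 CPM before 72 h and then 1.25, 73.4, 94.5 and 1.94 CPM. It rose by 3.79 on the log2 scale (SE 0.99, edgeR adjusted p = 0.0258), and it lost its call in 9 of the 22 alternatives, among them that without replicate 3 (2.88). In these 3 genes the high values at 72 h were thus those of replicates 2 and 3, and the group ranges overlapped.

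LOC119655512 and LOC119652861 rose less. LOC119655512 had 11.7, 28.6, 0.442 and 24.9 CPM at 6 h, 0.476 to 2.76 CPM at 24 h and 17.1, 3.68, 28.2 and 45.8 CPM at 72 h. It rose by 2.20 on the log2 scale (SE 0.70), with an edgeR adjusted p that rounds to 0.05 and lies just under it, and the call was lost in 16 of the 22 alternatives. LOC119652861 had 3.32, 4.66, 1.99 and 5.09 CPM at 6 h, 1.17, 1.30, 0.476 and 2.33 CPM at 24 h and 4.53, 16.5, 13.6 and 4.78 CPM at 72 h. Here too replicates 2 and 3 of 72 h were the high ones, and replicates 1 and 4 lay within the 6 h range. It rose by 1.92 on the log2 scale (SE 0.37, edgeR adjusted p = 0.00636), and was called in each of the 22 alternatives. No member had all AFB1 72 h libraries above the earlier ones, where 2.65% of all tested genes did. The count of 5 was 1 without AFB1 72 h replicate 3, beside 3.27% of all genes. It was 2 without AFB1 6 h replicate 1 or AFB1 24 h replicate 2 or 3, beside 5.46%, 5.52% and 5.44%. It was 3 without AFB1 6 h replicate 4, AFB1 24 h replicate 1 or AFB1 72 h replicate 2, beside 6.72%, 7.01% and 6.4%.

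**Figure D4:**
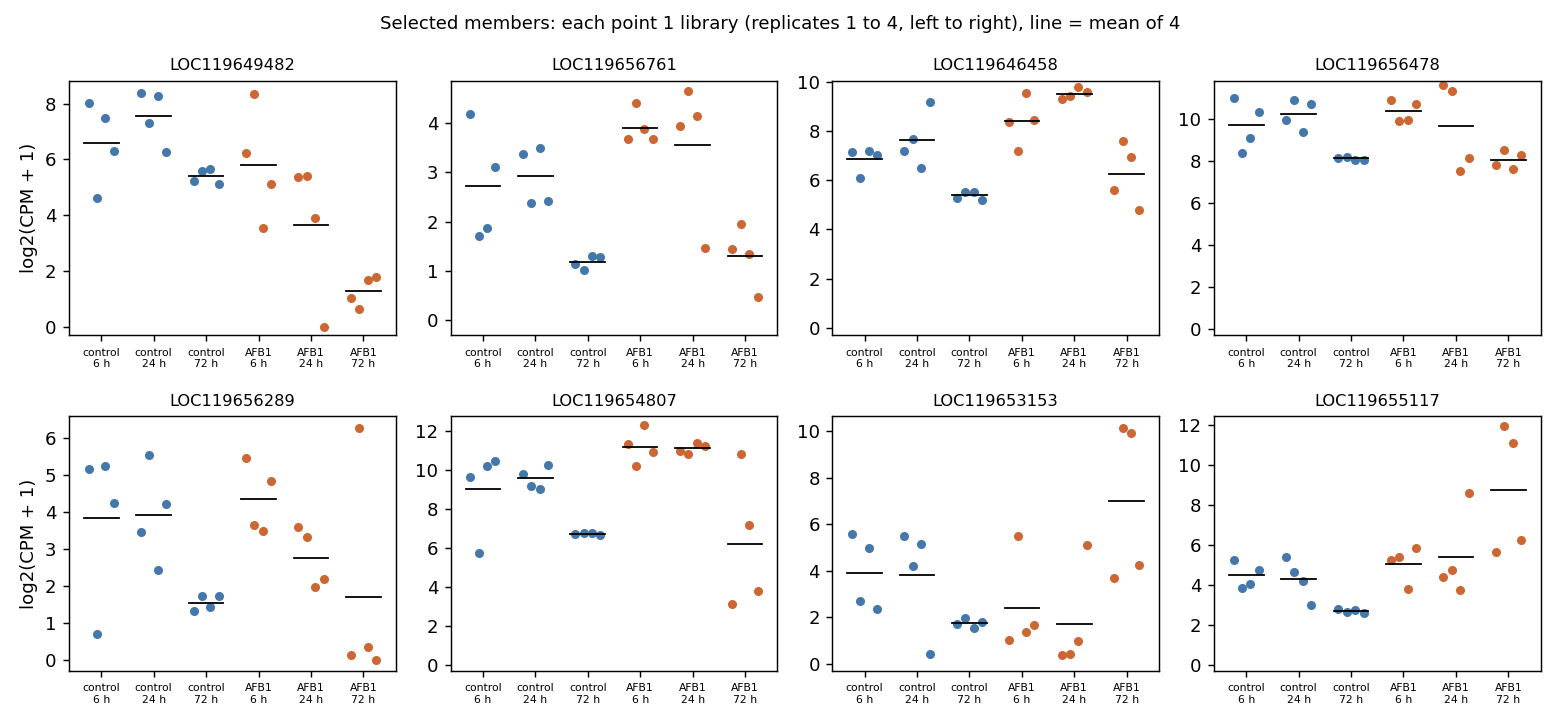
Levels of 8 named members, as log2(CPM + 1), with 1 point per library and a line at the mean of 4 (blue for control, orange for AFB1). LOC119653153 and LOC119655117 are high in replicates 2 and 3 of AFB1 72 h, and LOC119656289 and LOC119654807 are low in all AFB1 72 h libraries but replicate 2.

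Some members with a large control fall did not pass, and in them 1 library parted from the rest. LOC119656289 had 42.6, 11.4, 10.2 and 27.5 CPM at 6 h, 11.0, 8.94, 2.86 and 3.50 CPM at 24 h and 0.0964, 75.7, 0.258 and 0 CPM at 72 h on AFB1 feed. Replicate 2 of 72 h was thus the highest of the 12 and the other 3 the lowest. The log2 fold change was 0.09 (SE 1.18, adjusted p = 0.967 in edgeR) with that library and -6.61 (adjusted p = 0.000353) without it, and over all 22 alternatives it ran from -6.61 to 0.50.

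LOC119654807 had 2570, 1180, 4930 and 1920 CPM at 6 h, 2000, 1760, 2650 and 2380 CPM at 24 h and 7.52, 1780, 142 and 12.7 CPM at 72 h. Again replicate 2 of 72 h lay within the earlier range and the other 3 far below it. The log2 fold change was -2.96 (SE 1.17, adjusted p = 0.1 in edgeR), and -5.75 and called without that library. Over the whole list, AFB1 72 h replicate 2 was the highest of its group for 91 members (60.7%), which is near the 59.7% of all tested genes, so its high values are common to many genes.

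Other members with many reads did not pass the test either. LOC119651873 had 2770, 3640, 623 and 1880 CPM at 6 h, 805, 1140, 1610 and 1130 CPM at 24 h and 1300, 1450, 1340 and 1270 CPM at 72 h. All 72 h values lay within the earlier range and above the 240 to 268 CPM of the 72 h controls. Its log2 fold change was -0.42 (SE 0.41, adjusted p = 0.501 in edgeR). LOC119653748 had 314 to 1140 CPM at 6 h, 149 to 445 CPM at 24 h and 244 to 879 CPM at 72 h, with -0.39 (SE 0.38, adjusted p = 0.509 in edgeR). LOC119652119 had 120 to 601 CPM, then 78.6 to 277 CPM and then 309, 1990, 677 and 324 CPM, with 1.38 (SE 0.45, adjusted p = 0.0526 in edgeR), and was called in 6 of the alternatives. A test that misses the threshold does not show that the levels were equal.

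The separate comparisons of AFB1 times share libraries and are given side by side. At 72 against 24 h, 27 of 148 members fell, beside 11.5% of all genes, and 8 rose, beside 12.2%. The median log2 fold change was -0.15 over members and 0.10 over all genes. The number that fell was 14 and 13 without AFB1 24 h replicate 2 or 3, 11 without AFB1 72 h replicate 3 or 4, and 11 without AFB1 24 h replicates 3 and 4 together. The number that rose was 1 without AFB1 24 h replicate 3, 2 and 3 without AFB1 72 h replicate 4 or 3, 3 without AFB1 24 h replicate 2, 4 without AFB1 6 h replicate 1, 5 without AFB1 72 h replicate 2 and 1 without AFB1 24 h replicates 3 and 4 together. The counts without single libraries have no share over all genes beside them. They therefore cannot tell a change in the members from a change over all genes.

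At 72 against 6 h, 11 members fell, beside 2.29% of all genes, and none rose, beside 1.62%. In edgeR 5 members (3.38%) were higher with an unadjusted p under 0.05, beside 7.72% of all genes. DESeq2 called 4 higher and limma voom 0. The median log2 fold change was -0.62 over members and 0.02 over all genes, and 116 members (78.4%) had a negative value, against 48.9% of all genes. The 11 became 0 without the 3 AFB1 libraries nearer to another group, where 0.424% of all genes were called lower. The number was 2 without AFB1 72 h replicate 3 or 4, 3 without AFB1 6 h replicate 1 or 4, 4 without AFB1 72 h replicate 1, 6 without AFB1 6 h replicate 2 or AFB1 24 h replicate 2, 7 without AFB1 6 h replicate 3 or AFB1 24 h replicate 1 and 17 without AFB1 72 h replicate 2. No share over all genes is set beside these counts or those of DESeq2 and limma voom, so they do not show a change particular to the members.

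At 24 against 6 h, no member was called in edgeR, and neither was any of the 9480 genes (0.0% in either direction). With an unadjusted p under 0.05 in edgeR, 30 members were lower (20.3%, against 12.4% of all genes) and 7 higher (4.73%, against 9.1%). DESeq2 called 13 lower and 2 higher, and limma voom called 0, with no share over all genes set beside these counts. Without AFB1 6 h replicate 3, which correlated better with the AFB1 24 h group (mean r = 0.926) than with its own (0.828), edgeR called 19 members lower and 8 higher, beside 9.31% and 8.46% of all genes. Deviations of same-numbered AFB1 6 and 24 h libraries from their group means correlated with r from 0.156 to 0.501. Differently numbered ones reached 0.209, and only replicates 1 and 3 (0.395 and 0.501) lay above that. With the replicate number as a block in a fit of those 8 libraries alone, 8 of 143 members were called lower, beside 1.83% of all genes. In that fit 0 were called higher, beside 1.86% (13 with an unadjusted p under 0.05). Without the block the same fit called 0, so the 8 calls rest on taking the numbers as pairs. The median log2 fold change in the fit of all 12 libraries was -0.45 over members and -0.12 over all genes.

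The rule was also applied to the AFB1 libraries on its own scale. Choosing genes by a large control fall favours a smaller fall in libraries that the choice did not use. The counts are therefore set beside all tested genes, and a part of the feed in them was not tested. The AFB1 72 h mean lay below both earlier AFB1 means in 67 members (44.7%, against 27.2% of all tested genes), and by at least 1 log2 unit in 22 (14.7%, against 4.76%). With the added demand that 6 and 24 h differ by less than 1, 16 members (10.7%, against 3.13%) met the whole rule in AFB1 libraries. The lowest AFB1 mean was that of 24 h in 74 members (49.3%, against 55.0% of all tested genes) and that of 6 h in 9. The highest was that of 6 h in 90 members (60.0%, against 27.3%).

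Levels on AFB1 feed are set beside the controls with no test, since the control values chose the members: choosing genes that are low in 72 h controls and high before favours a positive difference at 72 h and negative ones earlier. At 6 h the AFB1 mean minus the control mean had a median of 0.31 log2 units over members (quartiles -0.12 and 0.72), beside -0.24 over all tested genes, and 106 members lay above the controls, as did 37.5% of all tested genes. LOC119654807 had the highest difference, 2.18, and LOC119649377 the lowest, -2.63.

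At 24 h the median difference was -0.65 (quartiles -1.28 and 0.09), beside -0.43 over all tested genes, and 109 members lay below the controls, as did 65.6% of all tested genes. In 58 of them the gap was at least 1 log2 unit, as in 29.1% of all tested genes. The AFB1 24 h libraries of lowest depth moved with this: the median member level was 4.22 in replicate 3 and 4.23 in replicate 4, against 4.91 and 5.10 in replicates 1 and 2, and the median of all tested genes was lower in them too (3.33 and 3.66, against 3.78 and 3.89). LOC119646963 took 74.2% and 81.1% of the counts in them, against 27.4% and 42.8%, and mitochondrial protein genes took 15.7% and 14.7% of the other counts, against 3.95% to 9.94% in the other 22 libraries. The part of either in this result was not tested.

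At 72 h the median difference was 1.19 (quartiles 0.73 and 1.73), beside 0.09 over all tested genes. The AFB1 mean lay above the control mean in 139 members, as in 58.1% of all tested genes, and at least 1 above it in 92, as in 6.34%. In 89 members all 4 AFB1 libraries lay above all 4 controls, where 11.6% of all tested genes did so, and in 2 they lay below, where 7.6% did. The range ran from -4.11 for LOC119649482 to 6.06 for LOC119655117. At 6 h the libraries of both feeds did not overlap in 4 members (3 higher on AFB1 feed, beside 4.45% of all tested genes, and 1 lower, beside 9.99%), and at 24 h in 16 (9 higher, beside 5.51%, and 7 lower, beside 8.15%).

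**Figure D5:**
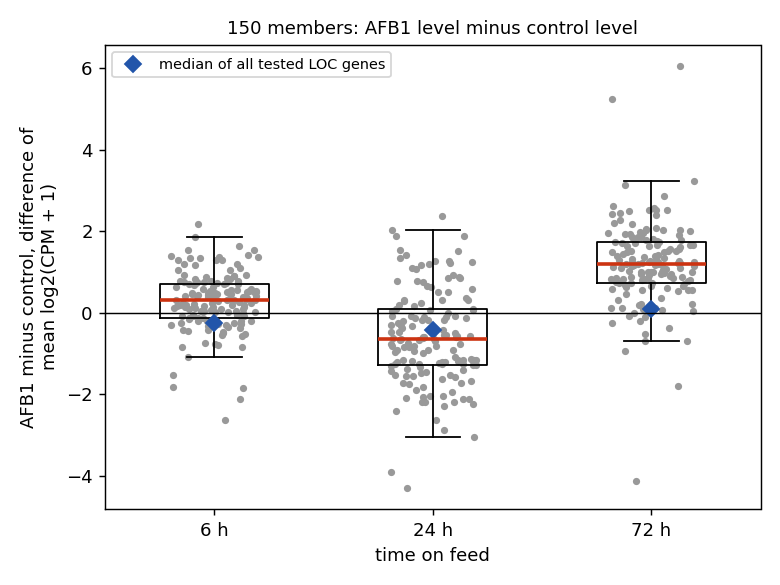
Difference of the mean log2(CPM + 1) on AFB1 feed from that on control feed at each time (grey points, 1 per member; boxes show quartiles and the red line the median; whiskers reach to 1.5 times the box) beside the median of all tested genes (blue diamond). The member medians are 0.31, -0.65 and 1.19 at 6, 24 and 72 h.

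The remaining 2 members had too few counts in AFB1 libraries to be tested. LOC119649377 had 6.94, 0.600, 18.7 and 106 CPM in 6 h controls, 4.53 to 61.6 CPM at 24 h and 2.80 to 3.59 CPM at 72 h. On AFB1 feed it had 0, 14.1, 0.221 and 0 CPM at 6 h, at most 0.147 CPM at 24 h and at most 0.736 CPM at 72 h. The only AFB1 library with more than 1 CPM was thus 6 h replicate 2, the one nearest to a control library. LOC119648402 had 3.90 to 12.1 CPM in 6 h controls, 1.12, 2.91, 7.92 and 27.3 CPM at 24 h and 0.667 to 2.58 CPM at 72 h. Control 24 h replicate 1 thus lay within the range of the 72 h controls. On AFB1 feed LOC119648402 averaged 1.22, 0.545 and 0.900 CPM at 6, 24 and 72 h. The AFB1 72 h mean came from replicate 2 alone (0, 3.6, 0 and 0 CPM).

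By the order of genes in the RefSeq table of the assembly iHerIll2.2, 32 members stood in 15 runs with at most 2 genes between neighbours, and 118 stood alone. No share over all genes was computed for such runs. In 11 of the 15 runs the members' log2 fold changes in AFB1 libraries had 1 sign. Since 67.6% of all tested members had a negative value, many runs would share a sign in any case. Whether neighbours go together was not tested. The runs of 3 were LOC119646602, LOC119652622 and LOC119661476, with log2 fold changes of -0.90, -1.19 and -0.43, and LOC119651119, LOC119652130 and LOC119652133, with -0.77, -0.35 and -1.91. Of these 6 genes LOC119652133 alone passed the test. Reads of neighbouring or near-identical genes may have been divided by the counting, which the counts cannot show. By class, 149 members were protein-coding (99.3%, against 98.5% of all tested genes).

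The limit of 150 divides genes of nearly equal fall. Just inside lay LOC119652591 (1.092) and LOC119653040 (1.091), and just outside LOC119659396 (1.087) and LOC119661336 (1.086). On AFB1 feed at 72 h these 4 averaged 11.7, 37.9, 36.7 and 33.8 CPM, in the order named. Against the mean of 6 and 24 h, only LOC119659396 was called lower, with a log2 fold change of -1.17 (adjusted p = 0.0392 in edgeR). LOC119652591, LOC119653040 and LOC119661336 had -0.34, 0.12 and -0.85 (adjusted p = 0.595, 0.847 and 0.183 in edgeR).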

How the data were processed

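Raw counts of reads per gene make up the table the authors deposited; its columns, 1 a library, were mapped to samples by the column names in the labels. Per the submitters' processing notes, STAR was used; its version, the counter, the build and the use of strand were not given in the sources used here. Libraries were total RNA of 2 pooled larvae, read as paired ends of 150 bp according to the labels' protocols, which mention 5 pools per diet and time; 4 were analysed here. Of 15197 lines, 1 was empty and 9 named no gene. These 9 held 0.0206% to 0.0431% of counts and stayed out of tests; leaving them out of column sums gave the same 150 members. Counts without LOC119646963 of the 12 AFB1 libraries were fitted with edgeR 4.0.16 (R 4.3.3): filterByExpr over 3 groups (9480 genes), TMM scaling, 1 coefficient per group (9 residual degrees of freedom; biological coefficient of variation 0.54 over all genes) and the robust quasi-likelihood test, two-sided. The fit left out the controls because they chose the members. The SE is the log2 fold change divided by the square root of F. CPM values are not adjusted for gene length and were computed from the deposited counts without TMM; a background percentage of calls is over the 9480 genes, and one of levels over the 9468 of them with a LOC identifier. Pairs of libraries were compared over genes with at least 20 counts, a gene differing at a z beyond 1.96. The fit was tested on simulated counts. Alternatives used DESeq2 1.42.0, limma 3.58.1 (voom), other scalings, filters and sets of libraries. Deviations from the group means correlated in same-numbered AFB1 libraries of 6 and 24 h (r from 0.156 to 0.501 in 4 pairs). Differently numbered pairs ran from -0.349 to 0.209, so replicates 2 and 4 (0.184 and 0.156) did not stand out. That comparison was run with and without the numbers as pairs. Libraries of 72 h did not deviate together with either (r from -0.212 to 0.255), and the labels name nothing that a number shares.

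Named members were, by a fixed rule, the 4 of largest control fall, the 4 of most reads in earlier controls and in AFB1 72 h libraries, the 4 of largest fall and rise among called members, the genes on either side of the limit and the runs of 3 neighbours; families by protein similarity and motif searches were planned, but no sequences were given and none was made. LOC119652861, the members whose libraries did not overlap, those not tested and those of extreme difference were named after their values were seen. The members and lists were chosen with earlier results of these data known.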

Additional observations from a re-analysis of the deposited data

Results flagged for a closer look

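In a group of 4 libraries, a value was listed where its gap to the nearest other, as a share of the group's range, passed Dixon's critical value. Of 144 groups tested (22 named members, the median member level and the LOC119646963 share, in 6 groups each), 11 values were listed (7.64%), and chance gives about 1 in 20.

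In control 6 h replicate 2, LOC119654807 had a level of 5.73 log2(CPM + 1), against 9.64 to 10.43 in the other 3 libraries, and LOC119646458 a level of 6.08, against 7.05 to 7.18. In control 24 h replicate 4, LOC119646963 took 36.8% of counts, against 7.12% to 7.92%, LOC119646246 had a level of 0.61, against 3.30 to 3.60, and LOC119653040 a level of 4.02, against 5.72 to 5.85. In control 72 h replicate 2, LOC119646246 had 1.07, against 0.62 to 0.68.

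On AFB1 feed, LOC119653748 had a level of 8.30 in 6 h replicate 3, against 9.96 to 10.16. LOC119653153 had 5.50 in 6 h replicate 2, against 1.02 to 1.68, and 5.10 in 24 h replicate 4, against 0.37 to 0.97. LOC119661476 had 2.12 in 24 h replicate 3, against 3.65 to 3.96. LOC119656289 had 6.26 in 72 h replicate 2, against 0 to 0.33.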

How the results depend on the processing

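For AFB1 72 h against the mean of 6 and 24 h, the share of members called lower exceeded that of all genes, and the share called higher was under it, in all 22 alternatives; the median log2 fold change ran from -0.58 to -0.29 over members and from 0.03 to 0.14 over all genes. Leaving out 1 AFB1 library gave 7 to 26 members lower (22 with all) and 1 to 6 higher (5). For 72 against 24 h it gave 11 to 29 lower (27) and 1 to 12 higher (8), for 72 against 6 h 2 to 17 lower (11) and 0 to 1 higher (0), and for 24 against 6 h 0 to 19 lower and 0 to 8 higher (0 and 0). No share over all genes is set beside these ranges. Leaving out 1 control library, the rule took 105 to 142 of the 150 members; it took 97 without control 6 h replicate 2 and control 24 h replicate 4, 92 with log2(CPM + 5) and 103 with TMM-scaled sizes. The alternatives without the libraries nearer to another group, with summed control 72 h pairs, without those 2 controls and of the 6 and 24 h libraries alone were chosen after seeing the data.

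Counts that changed by over 1.5 times were as follows; the cause was not tested. Members higher at 72 h against the mean were 3 with no filter on low counts, 2 with limma voom, 1 with the replicate block, 3 without AFB1 24 h replicates 3 and 4 and 1 when AFB1 libraries nearer to another group were dropped. In that order, 6.23%, 5.06%, 5.59%, 6.0% and 3.85% of all genes were called higher. At 72 against 24 h, 11 were lower and 1 higher without AFB1 24 h replicates 3 and 4, and 15 were higher with DESeq2, 1 with limma voom, 15 with all 24 libraries and 14 with summed 72 h control pairs. At 72 against 6 h, 4 were lower with no filter, 20 with DESeq2, 18 with all 24 libraries, 5 with the replicate block, 0 without those nearer to another group and 17 with summed pairs. In the same contrast, 4 were higher with DESeq2, 2 with all 24 libraries, 1 without AFB1 24 h replicates 3 and 4 and 1 with summed pairs. At 24 against 6 h, DESeq2 gave 13 lower and 2 higher, and all 24 libraries 2 and 1. With the replicate block in the 6 and 24 h libraries alone, 8 were lower. Outside 72 h against the mean, no share over all genes is set beside the counts in this list, and nothing about the members alone is read from them.

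Between 6 and 24 h, deviations of same-numbered AFB1 libraries correlated with r from 0.156 to 0.501, beside -0.349 to 0.209 in differently numbered ones. Between 24 and 72 h the r ran from -0.212 to -0.046, beside -0.166 to 0.313. Between 6 and 72 h it passed 0.1 in 1 of 4 pairs (-0.108 to 0.255, beside -0.435 to 0.402). Of 12 libraries, 6 correlated best with their own number. With the replicate block in all 12 libraries, 19 members were lower at 72 h against the mean, beside 4.51% of all genes. At 72 against 24 h, 20 were lower and 9 higher with this block. No share over all genes is set beside these counts, and nothing about the members alone is read from them.

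Of 484 values of named members, 62 lost a call, 14 gained one and 10 changed sign, all in 2 genes that were not called. LOC119656289 was at -3.58 with limma voom, -2.78 with the replicate block, -0.15 without AFB1 24 h replicates 3 and 4, -0.0141 without those nearer to another group and between -6.61 and 0.50 without 1 library. LOC119653040 was at -0.0145 with limma voom, -0.0693 without AFB1 24 h replicates 3 and 4 and between -0.35 and 0.36 without 1 library.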
